A study of Mus musculus with 32 samples.

Results

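The response of the liver to a high-fat diet (HFD) was contrasted between male and female C57BL/6J mice that were 52 weeks old when feeding began. Of the 32 liver RNA-seq libraries of the study, 16 came from these mice, with 4 libraries in each of 4 groups. The male HFD group held M6.1, M6.3(2), M8.1(2) and M8.2, and the male group on the matched low-fat diet (LFD) held M7.1, M7.2, M9.1 and M9.2. The female HFD group held F6.1, F6.4, F8.1 and F8.2, and the female LFD group held F7.2, F7.4, F9.1 and F9.2. Each library is named by its title in the labels. Feeding lasted 10 weeks, no group carried a transgene, a deletion or a drug, and the diet was the one treatment that set HFD apart from LFD. The labels do not say what the numbers in the titles mark, each of which occurs on 1 diet only, nor whether the libraries of a group are independent of each other. The p-values therefore measure the spread between these samples, and the fits treat the 4 of a group as independent. The other 16 libraries came from mice that began at 7 weeks of age and enter here as the comparison by age. The quantity described is a difference of differences, the HFD effect in males minus the HFD effect in females, called the interaction. A positive interaction means that the log2 fold change between HFD and LFD was higher in males. The counts were deposited in 1 table per sex, so a constant gap between male and female levels cannot be told apart from a gap between the tables, and male and female levels are not compared here.

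The mouse liver is one of the most sexually dimorphic organs. The pituitary releases growth hormone in pulses in males and nearly continuously in females, and hepatocytes read that pattern through STAT5B, which keeps a set of cytochrome P450, sulfotransferase and secreted protein genes on in one sex and low in the other. A high-fat diet fills hepatocytes with triglyceride, induces genes of fatty acid oxidation and of lipid storage, and can bring inflammation, activation of the stellate cells that lay down collagen, and the antiviral gene programme that type I interferons induce. Amino acid breakdown and the urea cycle, by contrast, are functions of differentiated hepatocytes that respond to protein intake, glucagon and glucocorticoids. In bulk tissue, fewer cells of a type and less RNA per cell cannot be told apart.

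The 16 libraries held 32206140 to 51469287 counts, with TMM factors of 0.9328 to 1.138. The levels below are TMM-scaled CPM, which divide each count by the library's total over the genes tested, multiplied by its TMM factor. Of 15386 genes listed in both tables, 15383 were tested in 1 edgeR quasi-likelihood fit of all 32 libraries. The interaction was called (Benjamini-Hochberg adjusted p under 0.05 over all genes tested) for 604 genes, which is 3.93 percent of those tested. The diet effect was higher in males for 323 genes (2.1 percent) and lower in males for 281 (1.83 percent). Higher calls made up 53.5% of the total with TMM, 41.8% with RLE scaling and 42.4% with genes of at least 1 CPM in 4 libraries, so the balance of the directions depends on the scaling and the filter, whereas no sign changed among the 604 genes under RLE scaling or among the 587 of them tested under that filter. The absolute log2 interaction of the called genes ran from 0.29 to 5.11 with a median of 0.977. Over all genes tested the median interaction was 0.0211, and 5% of the genes lay below -0.694 and 5% above 1.31.

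Library by library, the count of 604 was not stable. In the leading distances of the 500 most variable genes, M8.1(2) and M8.2 lay at -1.31 and -1.39 on the second dimension against -0.449 and -0.762 for M6.1 and M6.3(2). Without M8.1(2) the count was 28, without M8.2 it was 32, and without both it was 2, with 1531 genes at an unadjusted p under 0.05. It also fell by over 1.5 times without M7.1 (192), M7.2 (126), F6.1 (233), F8.1 (126), F8.2 (96), F7.2 (64), F7.4 (217) or F9.2 (256). It rose to 1723 without M6.1 and to 1750 without F6.4. Pairs of libraries whose titles share a number, left out in turn after the data were seen, gave 10 without F7.2 and F7.4, 15 without F8.1 and F8.2, 30 without M7.1 and M7.2, and 2163 without M6.1 and M6.3(2). A low count of adjusted calls was therefore not particular to M8.1(2) and M8.2. At an unadjusted p under 0.05 these 4 fits held 2808, 2608, 2671 and 4523 genes, so the 1531 without M8.1(2) and M8.2 was lower than in any of them. All 604 signs held in each of these fits. Libraries sharing a title number were closer to each other than to the rest of their group in 7 of 8 pairs, by the chi-square of their counts per gene. With the libraries of a group summed by title number, which leaves 2 samples a group, 8 genes were called. In that fit 2 of the 24 leading calls, 1 of the 20 amino acid calls, 2 of the 9 male-biased calls, 1 of 11 calls on lipid genes other than fatty acid genes, and 0 of the 22 interferon calls passed the adjusted test. None of the 13 matrix and protease, 5 stellate cell, 8 immune and endothelial, 4 cell cycle, 6 hepatocyte, 4 female-biased and 10 fatty acid calls did, whereas each of these calls had an unadjusted p under 0.05 there. The 2 genes called without M8.1(2) and M8.2, named after their values were seen, were Ppm1k, a mitochondrial phosphatase, and Dpy19l3, a C-mannosyltransferase of the endoplasmic reticulum. Both are described below with every library, and the count held for each gene group is given with and without these libraries.

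**Figure D1:**
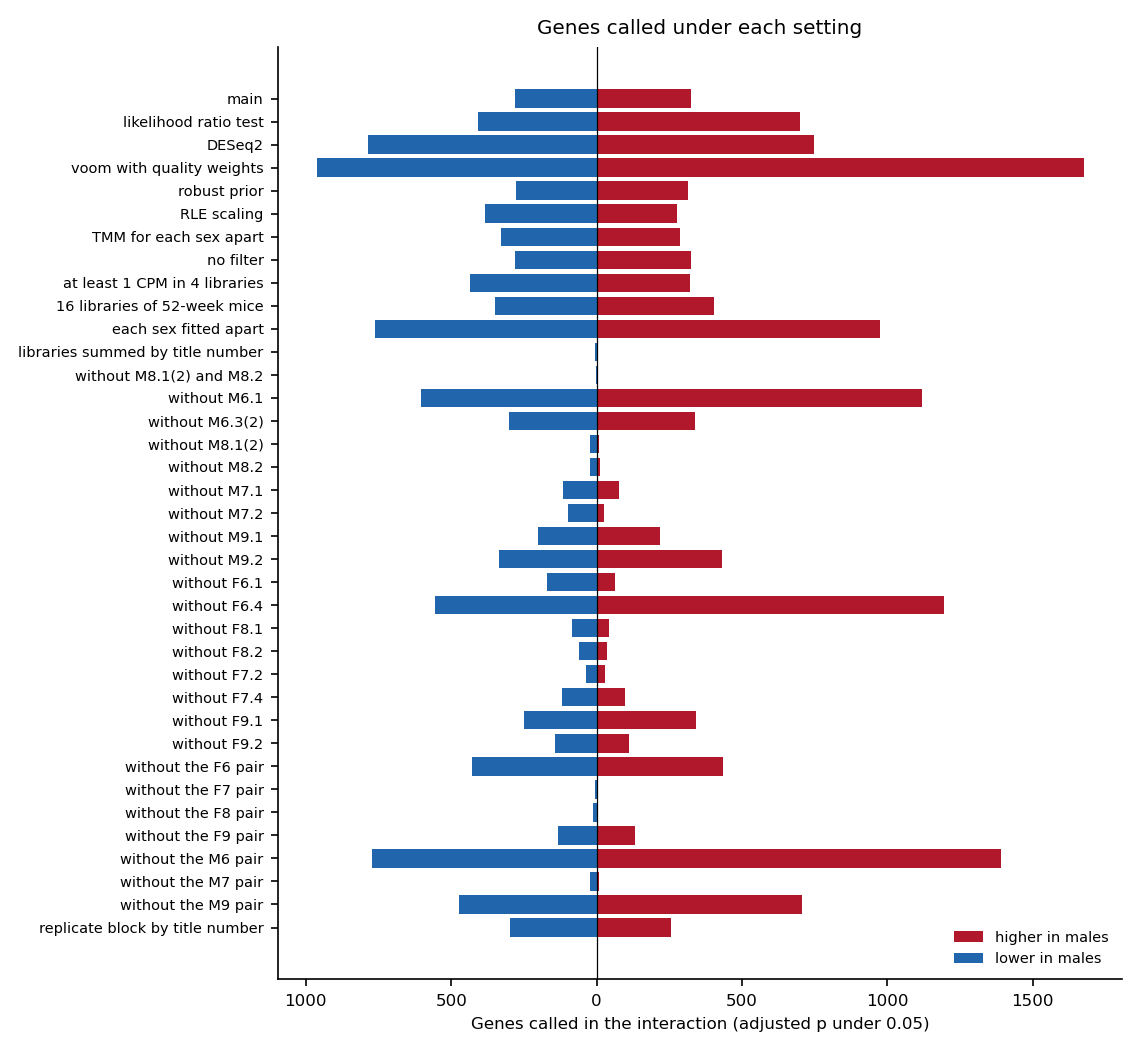
Number of genes called in the interaction under each setting, with genes whose diet effect was higher in males drawn to the right of 0 and those lower in males to the left. Each bar is 1 fit, and the bars without M8.1(2), without M8.2 and without both are among the shortest (28, 32 and 2 genes), as are those without the F7, F8 and M7 pairs (10, 15 and 30), whereas those without M6.1 and without F6.4 reach 1723 and 1750.

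For 546 of the 604 called genes the fitted diet effects of the sexes had opposite signs. Choosing genes by the difference between the sexes itself favours opposite signs. The share over all genes is not given here, so no result is drawn from that count. Among the 323 higher calls, 183 rose in males without passing the test in females, 82 fell in females without passing it in males, 7 rose in males and fell in females, and 51 passed in neither sex alone. Among the 281 lower calls, 151 rose in females without passing in males, 72 fell in males without passing in females, 9 fell in males and rose in females, 2 rose in both, and 47 passed in neither. The calls therefore included genes moved in males and genes moved in females, and the groups of genes described below differ in which sex moved.

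**Figure D2:**
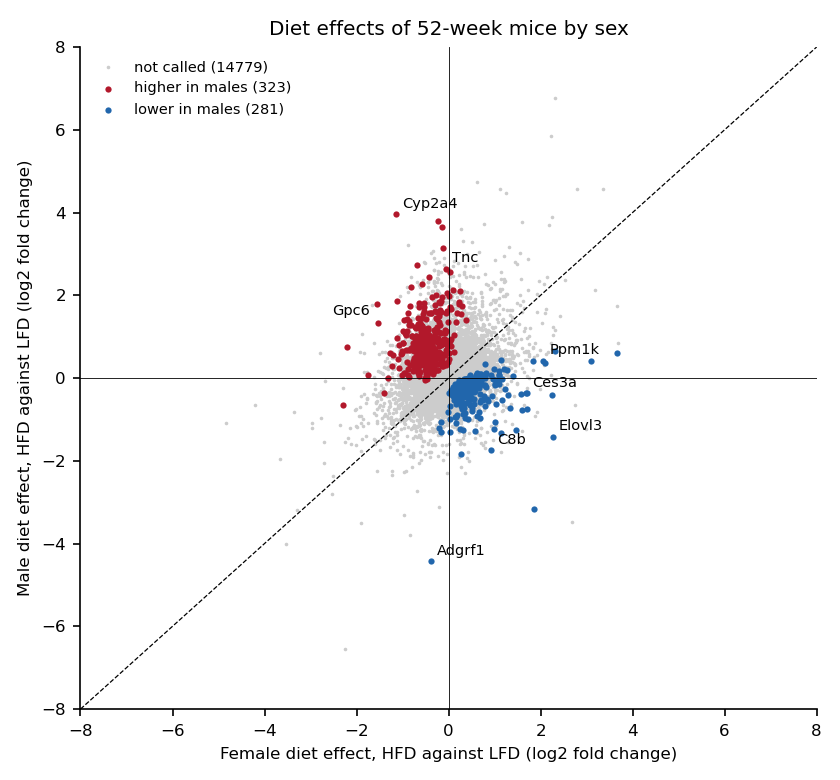
Male diet effect against female diet effect (log2 fold change, HFD against LFD) for each gene tested, with called genes in colour and the dashed line marking equal effects. The 323 genes higher in males lie above the line and the 281 lower in males lie below it. Of the 604 calls 546 fall in the quadrants of opposite sign, which choosing genes by the difference itself favours.

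The genes with the largest interactions were a mixed set. Among the 12 most positive, 11 rose in males, and among the 12 most negative, 7 rose in females and 3 fell in males. Cyp2a4 (chr7:26307169-26315088 in mm10), a steroid 15-alpha-hydroxylase that female livers express at high level, had the largest at 5.11 (SE 1.06, edgeR adjusted p = 0.0186). In males it stood at 0.979, 1.19, 0.474 and 1.08 CPM on LFD (M7.1, M7.2, M9.1 and M9.2) and at 4.36, 4.09, 30.8 and 19.5 CPM on HFD (M6.1, M6.3(2), M8.1(2) and M8.2), the library order kept for all male values below. In females it stood at 1082, 1671, 1475 and 1289 CPM on LFD (F7.2, F7.4, F9.1 and F9.2) and at 533, 672, 653 and 638 CPM on HFD (F6.1, F6.4, F8.1 and F8.2), the order kept for all female values. Every HFD male lay above every LFD male and every HFD female below every LFD female, with M8.1(2) and M8.2 the highest males. Its transcript shares 98.3% of 1738 aligned bases with that of Cyp2a5, which had an interaction of 0.12 (SE 0.51, edgeR adjusted p = 0.92). Reads that map to both genes were left out of the counts, so the level of Cyp2a4 is uncertain.

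Gpc6 (chr14:116925315-117976544), a glypican proteoglycan of the cell surface, moved in both sexes. Its male levels were 0.877, 1.23, 1.55 and 1.67 CPM on LFD and 1.32, 3.15, 3.03 and 5.8 CPM on HFD. Its female levels were 5.51, 6.04, 6.51 and 5.85 CPM on LFD and 1.39, 3.18, 1.77 and 1.91 CPM on HFD. The female groups did not overlap, whereas the HFD male M6.1 lay within the LFD males. The interaction was 2.86 (SE 0.5, edgeR adjusted p = 0.00538), from a rise of 1.33 in males (edgeR adjusted p = 0.0184) and a log2 change of -1.53 in females (edgeR adjusted p = 0.00575), and it was called with any 1 of the 16 libraries left out. Adgrf1 (chr17:43270329-43324737), an adhesion G protein-coupled receptor, had the most negative interaction among these genes at -4.04 (SE 1.06, edgeR adjusted p = 0.0353). It read 12.2, 19.7, 15.8 and 2.71 CPM in LFD males and 1.28, 0.74, 0.198 and 0.195 CPM in HFD males, so that every HFD male was below every LFD male, and 1.59 to 3.55 CPM in LFD and 1.2 to 2.41 CPM in HFD females, which overlapped. The other positive ones were Sybu (3.43), Ephb2, an ephrin receptor (3.26), Mki67, a marker of cycling cells (3.04), Slc34a2, a phosphate transporter (2.95), the hexokinase Hk2 (2.86), the matrix protein Tnc (2.71), Gpr35 (2.56), Anxa2 (2.53), Ifi27l2a (2.46) and the tubulin Tubb2a (2.37). The other negative ones were Elovl3 (-3.68), C8b (-2.66), C8a (-2.08), the pseudogene Adh6-ps1 (-2.08), the organic anion transporter Slc22a7 (-2.08), Ces3a (-2.05), Cyp2c50 (-1.97), Serpina3k (-1.86), Nox4, an NADPH oxidase (-1.72), Hsd3b2 (-1.69) and the antisense RNA Hectd2os (-1.66). Of the 24 leading calls, 5 held without M8.1(2) or without M8.2, 0 held without both, where 23 had an unadjusted p under 0.05, and the other 8 libraries named with the whole count each cut them by over 1.5 times.

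Interferon response genes formed the largest group of positive calls. These genes encode sensors of foreign nucleic acid, the 2'-5' oligoadenylate synthetases that start RNA decay, the IFIT proteins that block foreign transcripts, and the transcription factors that switch the programme on. Of 48 genes in the list, 22 were called, all with a higher diet effect in males, which is 45.8% against 3.93% of all genes. The median interaction was 1.01 against 0.0211 over all genes, made of a median log2 fold change of 0.927 in males and 0.0222 in females. In males 34 of the 48 rose and none fell, whereas in females none rose and 2 fell. Of all genes tested, 7.62 percent rose and 4.42 percent fell in males, and 6.3 percent rose and 4.91 percent fell in females, the background of all such counts below. In 30 of the 48 every HFD male was above every LFD male, a pattern found in 9.7 percent of all genes, and in 2 every HFD female was above every LFD female (9.68 percent of all genes). The reverse in females, every HFD female below every LFD female, held for 5 of the 48 (7.92 percent of all genes).

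The sequence through which interferons act on these genes is the interferon-stimulated response element, bound by a STAT and IRF9 complex and by other IRF factors. Its letters GAAANNGAAA (TTTCNNTTTC on the other strand) were searched on both strands in the 250 bases before to 50 bases after each gene start in RefSeq, where 1131 of 32851 promoters (3.44%) held them. Of the called interferon genes 14 had a promoter entry, and 8 of their 16 promoters held the letters, as did 12 of 27 promoters of the interferon genes not called, so the letters did not set the called genes apart from the rest of the list. Stretches of 5 of these promoters around the matches are shown, chosen among the called genes that hold the letters. The near copies Ifit3b and Oas1g, and Ddx58, whose match spans the gene start, were left out, and called genes without a match are not shown. The matches are in capitals (overlapping matches run together), and the sequences are from GRCm38.p6, written 5′ to 3′ on the strand of the gene. The matches began 104 and 85 bases before the start of Ifit1 (chr19:34640755-34640843, plus strand), 156 and 122 before that of Ifit3 (chr19:34583343-34583446, plus strand), 20 and 14 before that of Oas1a (chr5:120907526-120907575, minus strand), 75 before that of Oas3 (chr5:120777695-120777764, minus strand), and 45 and 39 before that of Gbp3 (chr3:142559969-142560043, plus strand).
Ifit1: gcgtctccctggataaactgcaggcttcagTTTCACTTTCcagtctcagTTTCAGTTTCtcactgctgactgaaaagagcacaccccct
Ifit3: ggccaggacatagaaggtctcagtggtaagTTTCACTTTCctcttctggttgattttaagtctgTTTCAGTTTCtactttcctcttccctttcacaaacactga
Oas1a: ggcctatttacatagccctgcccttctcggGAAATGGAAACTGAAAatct
Oas3: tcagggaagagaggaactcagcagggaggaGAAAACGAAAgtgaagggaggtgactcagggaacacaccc
Gbp3: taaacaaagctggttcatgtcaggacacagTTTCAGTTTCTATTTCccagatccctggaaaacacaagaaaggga

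Ifit1 (chr19:34640871-34650009), which binds foreign RNA caps and carries a pair of matches in its promoter, read 6.32, 5.7, 5.34 and 6.73 CPM in LFD males and 22.5, 18.5, 42.1 and 20.5 CPM in HFD males. In females it read 15.9, 11.4, 11.2 and 10.8 CPM on LFD and 14.8, 12.7, 13.1 and 17.8 CPM on HFD. All HFD males were above all LFD males, with M8.1(2) the highest by far, and the female groups overlapped. Its interaction was 1.86 (SE 0.44, edgeR adjusted p = 0.0271), where males gave 2.1 (SE 0.32, edgeR adjusted p = 0.000518) and females 0.24 (SE 0.31, edgeR adjusted p = 0.655). Irf7 (chr7:141262706-141266481), the transcription factor that amplifies the programme, read 40.9, 33, 27.1 and 25.5 CPM in LFD and 37, 51.9, 102 and 64.2 CPM in HFD males, with M6.1 inside the LFD range. Its female levels were 56.5, 52.7, 42.6 and 56 CPM on LFD and 31.1, 41, 29.3 and 36.6 CPM on HFD, all HFD values below all LFD values. The interaction of Irf7 was 1.6 (SE 0.31, edgeR adjusted p = 0.0125), the male rise of 1.01 passed the test (edgeR adjusted p = 0.00596), and the female value of -0.59 did not (edgeR adjusted p = 0.0807).

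Ifi27l2a (chr12:103442167-103443680), an interferon-induced protein of membranes, was the member that passed in both sexes. It read 1.14, 1.12, 1.25 and 1.41 CPM in LFD males and 1.74, 2.73, 4.94 and 5.29 CPM in HFD males, then 6.22, 3.52, 2.96 and 4.92 CPM in LFD females and 2.37, 2.81, 2.42 and 1.96 CPM in HFD females. The groups did not overlap in either sex, and the directions were opposite. Its interaction was 2.46 (SE 0.41, edgeR adjusted p = 0.00442), with a rise of 1.58 in males (edgeR adjusted p = 0.00211) and a log2 change of -0.88 in females (edgeR adjusted p = 0.043). Ifi27l2b, which shares 85.5% of 289 aligned bases with it, had 2.4 (SE 0.71, edgeR adjusted p = 0.0524). Oas3 (chr5:120753098-120777661), an oligoadenylate synthetase, read 1.08, 0.615, 1.42 and 1.39 CPM in LFD and 0.65, 2.32, 6.9 and 4.88 CPM in HFD males, where M6.1 lay within the LFD range and the other HFD libraries above it. It read 2.51 to 4.11 CPM in LFD and 1.44 to 2.81 CPM in HFD females, which overlapped, and its interaction was 2.36 (SE 0.58, edgeR adjusted p = 0.0315). Usp18, which removes ISG15 from proteins and damps the interferon receptor, read 8.32, 5.99, 4.29 and 5.11 CPM in LFD and 13.6, 13, 28.1 and 19.5 CPM in HFD males without overlap, against 9.27 to 15.3 and 10.1 to 13.4 CPM in LFD and HFD females with overlap, and its interaction was 1.82 (SE 0.37, edgeR adjusted p = 0.0175).

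The remaining interferon calls fell in several branches of the programme. They included the synthetases Oas1a (2.15), Oas1g (2.06), Oas2 (1.53), Oasl1 (1.51) and Oasl2 (1.95), the IFIT genes Ifit2 (1.96), Ifit3 (1.69) and Ifit3b (1.61), and the antiviral GTPases Mx1 (1.93) and Gbp3 (1.55). The sensors were Ddx58, which encodes RIG-I (0.6), Dhx58 (0.92) and Zbp1 (1.45), and others were Ifi44 (2.03), Xaf1 (1.21) and Rtp4 (1.03). All 22 called members rose in males, and 1 of them, Ifi27l2a, also passed the test in females. Oas1a and Oas1g share 97.5% and Ifit3 and Ifit3b 98.0% of their aligned bases, so the division of reads within these pairs is uncertain. Of the 48 genes in the list 26 were not called, among them Stat2, Irf1, Igtp, Irgm1, Irgm2 and Psmb8. Isg15, the ubiquitin-like modifier, was also not called at 1.16 (SE 0.41, edgeR adjusted p = 0.0844). Macrophages also express interferon response genes. The 25 macrophage and Kupffer cell markers summed to 384 to 739 CPM in LFD males, 337 to 1301 in HFD males, 1142 to 1697 in LFD females and 511 to 1675 in HFD females. Their part in the interferon result was not tested. Of the 22 calls, 2 held without M8.1(2), 0 held without M8.1(2) and M8.2, where 20 had an unadjusted p under 0.05 and the median interaction of the list was 0.653, and the count fell by over 1.5 times without each of the 10 libraries named with the whole count.

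**Figure D3:**
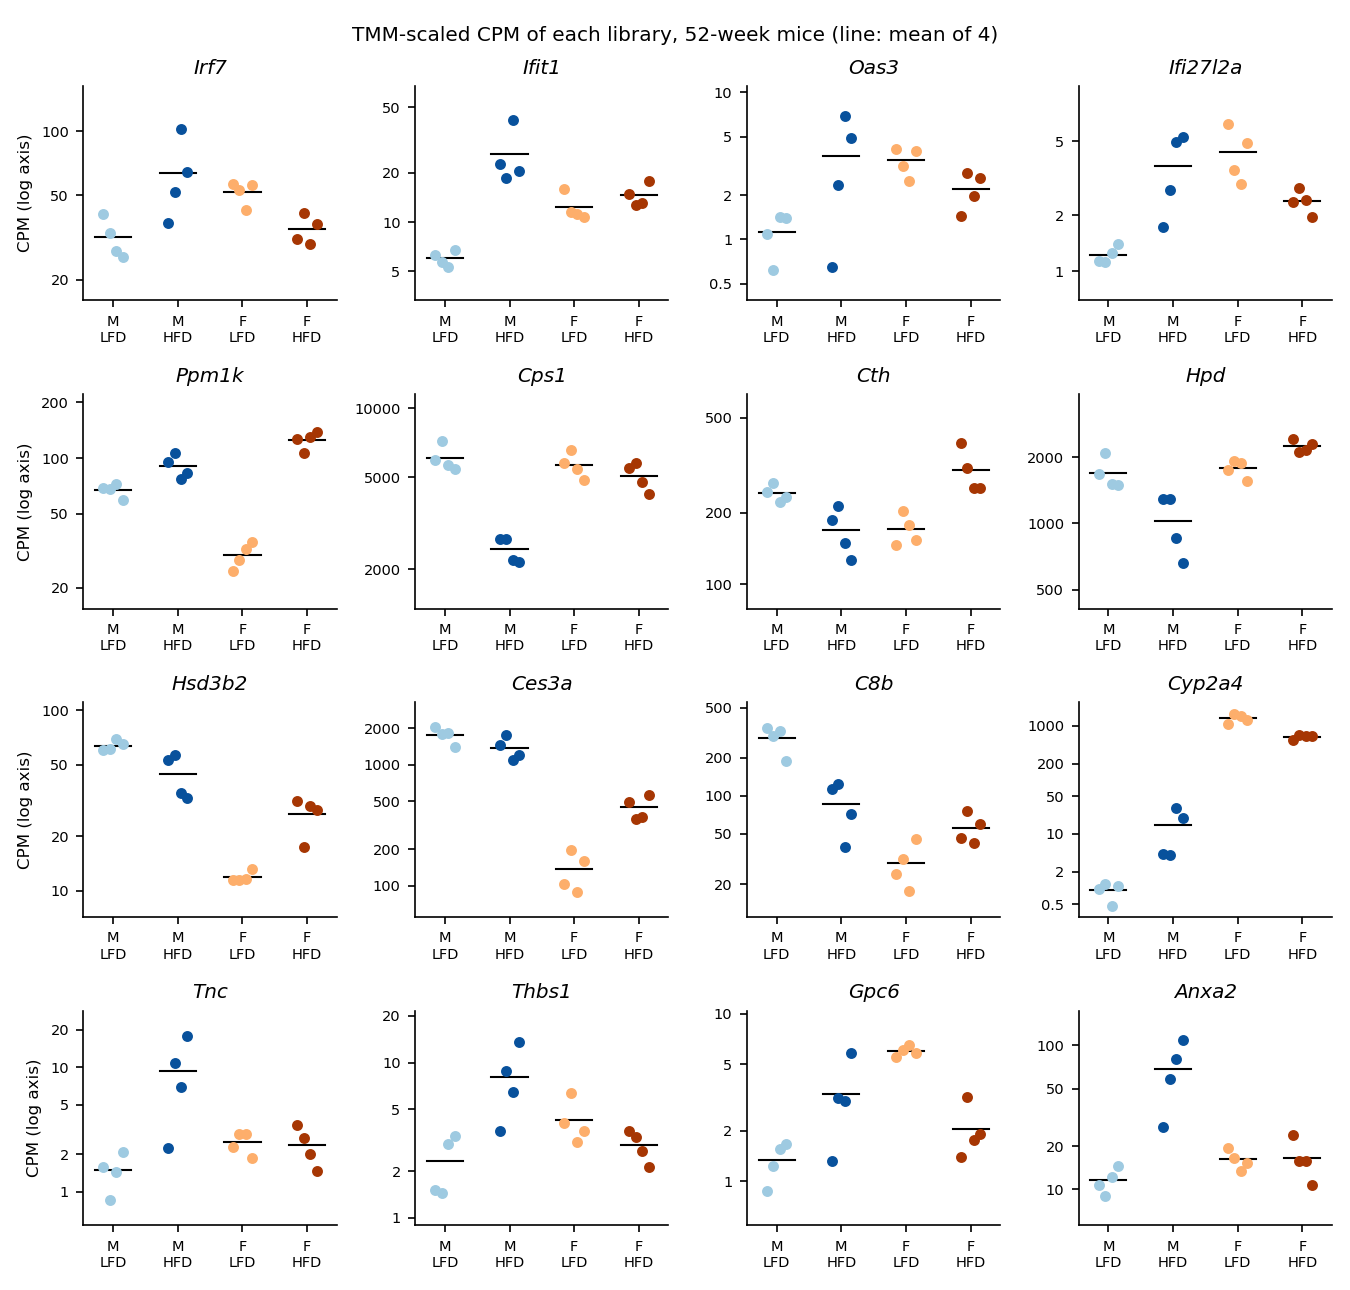
TMM-scaled CPM of 16 genes in each of the 16 libraries, on a log axis, with a line at the mean of the 4 libraries of a group. The interferon genes of the top row are on average above LFD males in HFD males, Ppm1k rises further in females (24.8 to 35.5 CPM on LFD, 107 to 138 CPM on HFD) than in males, and Cps1 is lower in HFD males (2157 to 2703 CPM) than in LFD males (5422 to 7183 CPM).

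Enzymes of amino acid breakdown and the urea cycle were the largest group in the other direction. Of 54 tested genes, 20 were called, all with a lower diet effect in males (37% against 3.93% of all genes), and the median interaction was -0.512. The sexes moved apart, with a median log2 fold change of -0.191 in males and 0.298 in females. In males 15 of the 54 fell and none rose (4.42 and 7.62 percent of all genes), and in females 20 rose and none fell (6.3 and 4.91 percent). Every HFD female was above every LFD female in 29 of the 54 (9.68 percent of all genes), and every HFD male was below every LFD male in 17 (7.72 percent of all genes). Of the 20 called genes 7 fell in males, 10 rose in females, none passed in both sexes, and 3 passed in neither.

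Ppm1k (chr6:57506502-57535468), which encodes the mitochondrial phosphatase that activates the branched-chain ketoacid dehydrogenase, had the second smallest p of all genes in the interaction. It read 68.9, 68.4, 72 and 59.7 CPM in LFD males and 94.7, 106, 76.8 and 83.4 CPM in HFD males. In females it read 24.8, 28.4, 32.3 and 35.5 CPM on LFD and 127, 107, 130 and 138 CPM on HFD. HFD libraries were above LFD libraries in both sexes, by a larger factor in females. The interaction was -1.63 (SE 0.23, edgeR adjusted p = 0.000631), where females gave 2.05 (SE 0.17, edgeR adjusted p = 1.16e-08) and males 0.42 (SE 0.16, edgeR adjusted p = 0.0771), and it was still called without M8.1(2) and M8.2, at -1.5 (SE 0.258, edgeR adjusted p = 0.0304). Other enzymes of the branched-chain pathway were Bckdha, a subunit of that dehydrogenase (-0.49), the aminotransferase Bcat2 (-0.61), Ivd of leucine breakdown (-0.77), Mccc2 (-0.49) and Pccb of propionate breakdown (-0.54), all called lower in males. Bckdhb, another subunit, was not called at -0.17 (SE 0.11, edgeR adjusted p = 0.353), and the opposing kinase Bckdk was at 0.15 (SE 0.13, edgeR adjusted p = 0.499).

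In the urea cycle, Cps1 and Ass1 fell in males and Otc rose in females. Cps1 (chr1:67123026-67231259), the mitochondrial enzyme that fixes ammonia in the first step, read 5984, 7183, 5649 and 5422 CPM in LFD males and 2697, 2703, 2196 and 2157 CPM in HFD males. Its female levels were 5785, 6560, 5444 and 4862 CPM on LFD and 5517, 5798, 4800 and 4242 CPM on HFD. HFD males were all below LFD males and the female groups overlapped. The interaction was -1.16 (SE 0.31, edgeR adjusted p = 0.0391), with a log2 change of -1.31 in males (edgeR adjusted p = 0.00117) and -0.15 in females (edgeR adjusted p = 0.696). Ass1, which joins citrulline and aspartate, fell in males by 0.94 on the log2 scale (edgeR adjusted p = 0.00625) and had an interaction of -1.08 (SE 0.29, edgeR adjusted p = 0.0402). Otc, the step between them, rose in females instead, from 360 to 415 CPM on LFD to 492 to 661 CPM on HFD with no overlap, against 393 to 460 and 307 to 420 CPM in LFD and HFD males with overlap, and its interaction was -0.77 (SE 0.16, edgeR adjusted p = 0.0169). Nags, which makes the activator of Cps1, was called at -0.6 (SE 0.17, edgeR adjusted p = 0.0498).

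Hpd and Cth, of tyrosine and sulfur amino acid breakdown, moved apart between the sexes. Hpd (chr5:123171807-123182727), a dioxygenase of tyrosine breakdown, read 1670, 2092, 1514 and 1493 CPM in LFD males and 1289, 1285, 856 and 658 CPM in HFD males. In females it read 1753, 1926, 1876 and 1563 CPM on LFD and 2407, 2110, 2156 and 2295 CPM on HFD. Neither sex overlapped, and the lowest males were M8.1(2) and M8.2. Its interaction was -1.06 (SE 0.23, edgeR adjusted p = 0.0222), where males gave -0.73 (SE 0.16, edgeR adjusted p = 0.0074) and females 0.33 (SE 0.16, edgeR adjusted p = 0.19). Cth (chr3:157894248-157925077), which makes cysteine from cystathionine, read 244, 266, 220 and 233 CPM in LFD males and 186, 214, 150 and 127 CPM in HFD males, and 146, 203, 177 and 153 CPM in LFD females and 391, 308, 254 and 253 CPM in HFD females. Again neither sex overlapped, and the interaction was -1.34 (SE 0.37, edgeR adjusted p = 0.0417). Ahcy, which splits S-adenosylhomocysteine (-0.95), Cbs, which makes cystathionine (-0.84), and Fah, the last enzyme of tyrosine breakdown (-0.54), were called in the same direction. So were Aadat (-0.97) and Aass (-0.8) of lysine breakdown, Kmo of tryptophan breakdown (-0.5), Prodh2 (-0.66) and Ftcd of histidine breakdown (-0.49). Of the 20 calls 2 held without M8.1(2) or without M8.2, 1 (Ppm1k) held without both, where all 20 had an unadjusted p under 0.05 and the list's median was -0.424, and the count fell by over 1.5 times without each of the 10 libraries named with the whole count.

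Genes that the male liver normally expresses above the female liver had a lower diet effect in males than in females. Of 49 genes in the list 37 were tested, since 9 of the others were in 1 table only, among them Cyp4a12a, Mup1 and Hsd3b5, whose male and female effects cannot be set side by side here. The interaction was called for 9 of the 37 (24.3%), all lower in males, and the median was -1.49, with medians of -0.885 in males and 0.578 in females. In males 10 fell (4.42 percent of all genes) and none rose, and in females 6 rose (6.3 percent) and 1 fell. Every HFD male was below every LFD male in 13 (7.72 percent of all genes), and every HFD female above every LFD female in 11 (9.68 percent).

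Hsd3b2 (chr3:98709255-98724543), a hydroxysteroid dehydrogenase, read 60, 60.9, 69 and 65 CPM in LFD males and 52.6, 56.7, 34.8 and 32.7 CPM in HFD males. Its female levels were 11.5, 11.4, 11.6 and 13.1 CPM on LFD and 31.2, 17.4, 29.6 and 27.9 CPM on HFD. HFD males were all below LFD males, HFD females all above LFD females, and M8.1(2) and M8.2 were the lowest males. The interaction was -1.69 (SE 0.26, edgeR adjusted p = 0.00287), the female rise of 1.16 passed the test (edgeR adjusted p = 0.000373) and the male value of -0.53 did not (edgeR adjusted p = 0.0565). Hsd3b3, 93.7% identical over 1481 aligned bases, moved likewise at -1.42 (SE 0.22, edgeR adjusted p = 0.00287). C8b (chr4:104766317-104804548), a chain of complement component 8, read 344, 300, 326 and 188 CPM in LFD males and 113, 123, 39.6 and 71.3 CPM in HFD males without overlap. It read 17.6 to 45.4 CPM in LFD and 42.1 to 76.3 CPM in HFD females, which overlapped, and its interaction was -2.66 (SE 0.6, edgeR adjusted p = 0.0252). C8a, its neighbour on chromosome 4 and another chain of the same component, was called at -2.08 (SE 0.51, edgeR adjusted p = 0.0295), where the female rise of 1.71 passed (edgeR adjusted p = 0.00349) and the male value of -0.37 did not (edgeR adjusted p = 0.511).

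Elovl3 (chr19:46131897-46135694), an elongase of very long chain fatty acids, read 176, 94.8, 358 and 204 CPM in LFD males and 134, 111, 37.8 and 29 CPM in HFD males, which overlapped, and 0.514, 0.921, 0.911 and 1.25 CPM in LFD females and 5.44, 2.73, 4.16 and 4.92 CPM in HFD females, which did not. Its interaction of -3.68 (SE 0.98, edgeR adjusted p = 0.0379) was called although neither sex passed alone. The other calls were Ugt2b1, a glucuronosyltransferase (-1.49), the cytochromes Cyp4v3 (-0.85) and Cyp2f2 (-1.14), and the serpin Serpina3k (-1.86), which shares 90.8% of its aligned bases with Serpina3m. STAT5 factors bind the letters TTCNNNGAA, which 2726 of 32851 promoters (8.3%) held, as did 1 of 8 promoters (12.5%) of the called genes and 3 of 28 (10.7%) of the others in the list. Of the 9 calls 3 held when M8.1(2) was left out and 0 when M8.2 was left out with it, where all 9 had an unadjusted p under 0.05 and the median was -1.16, and the count also fell by over 1.5 times without M8.2, M7.1 or F7.2.

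Of 39 female-biased genes tested, 28 had a positive interaction and the median was 0.593. Called higher in males were 3 of them (Cyp2a4, Abcc4 and Adam11) and lower 1 (Cyp2c50), which is 10.3% against 3.93% of all genes, and 9 rose in males (7.62 percent of all genes). Whether the listed genes are female-biased in these mice was not tested, since levels are not compared between the tables. The values below do not bear out that label for Cyp2c50, so its place in the list is uncertain. Cyp2c50 (chr19:40089688-40113950), an arachidonic acid epoxygenase, read 203 to 287 CPM in LFD females and 499 to 850 CPM in HFD females, every HFD value being the higher. In males it read 819, 948, 830 and 765 CPM on LFD and 820, 818, 558 and 368 CPM on HFD, where M8.1(2) and M8.2 alone lay below the LFD range. Its interaction was -1.97 (SE 0.45, edgeR adjusted p = 0.0254), and its near copy Cyp2c54 (95% identity) had -2.87 (SE 0.95, edgeR adjusted p = 0.0714). Abcc4, an efflux pump, was called at 1.97 (SE 0.54, edgeR adjusted p = 0.0417) and Adam11 at 1.64 (SE 0.46, edgeR adjusted p = 0.0442), where the female value of -2.3 passed the test (edgeR adjusted p = 0.000141). None of these 4 calls held without M8.1(2), without M8.2 or without both, where 3 had an unadjusted p under 0.05, and all but F7.4 of the other libraries named with the whole count, and F9.1, cut the 4 calls by over 1.5 times. The growth hormone pathway itself, 22 genes, held no call, with a median of -0.18 and 8 of the 22 positive. The receptor Ghr (-0.46), the repressor Bcl6 (-1.96, SE 0.98) and Igfbp2 (-1.4) were negative. Igfbp3 was positive at 0.8 (SE 0.34, edgeR adjusted p = 0.148).

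**Figure D4:**
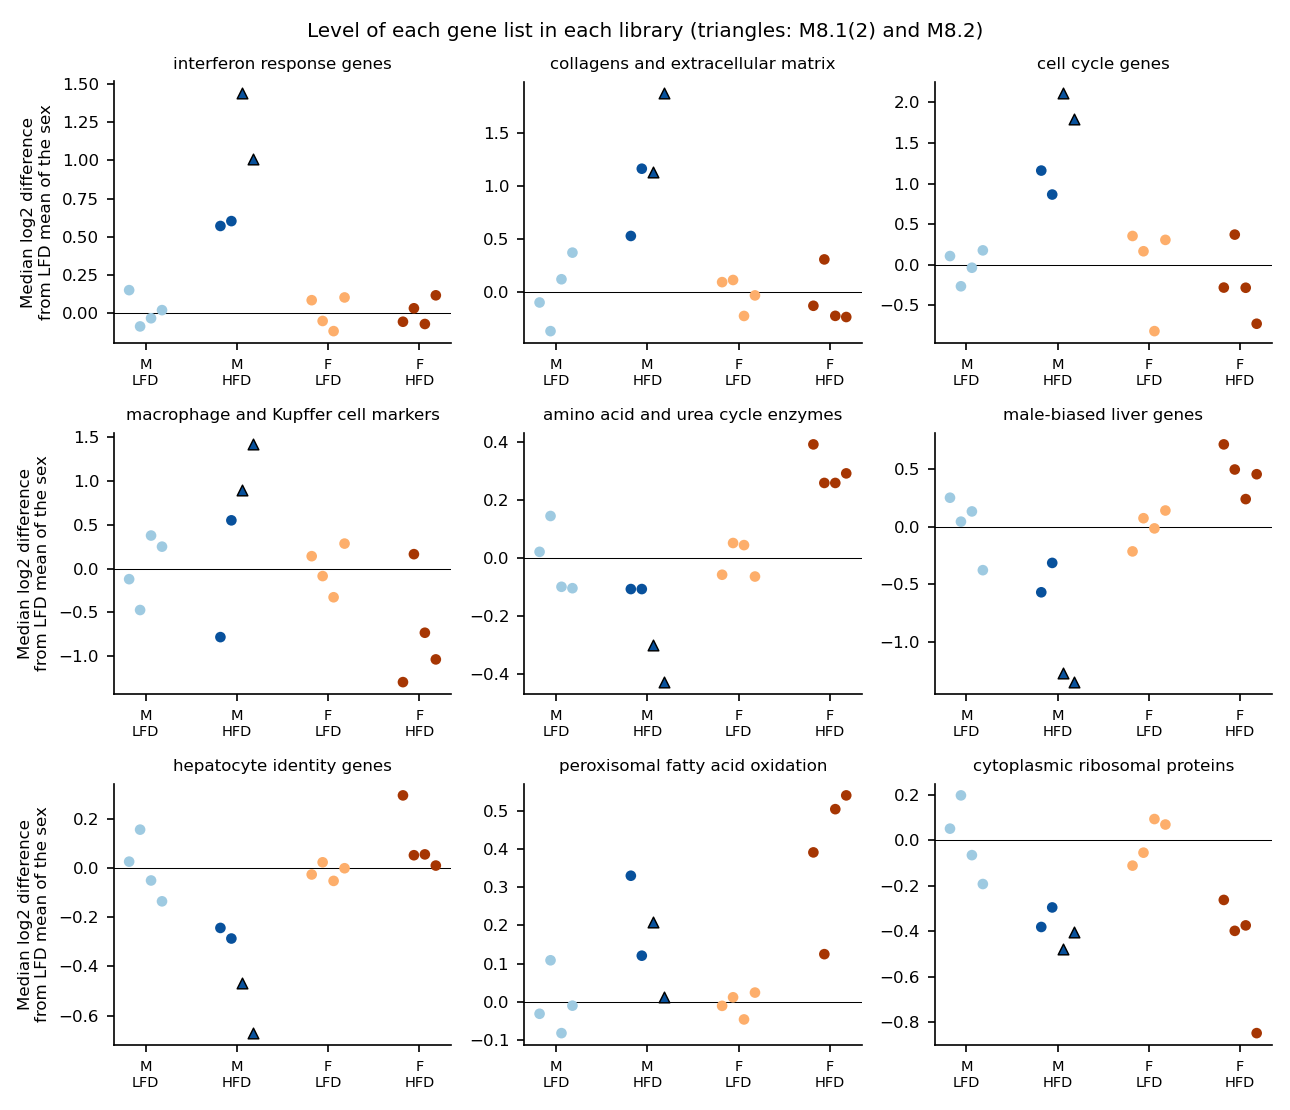
Level of 9 gene lists in each library, as the median over members of the log2 difference from the LFD mean of the same sex (pseudocount of 0.1 CPM), with triangles for M8.1(2) and M8.2. Interferon genes lie between 0.570 and 1.44 in HFD males and between -0.0732 and 0.115 in HFD females, amino acid enzymes between -0.427 and -0.106 in HFD males and between 0.260 and 0.393 in HFD females, and cytoplasmic ribosomal proteins fall on HFD in both sexes.

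The extent of these shifts differed between the HFD males. The median over the interferon list, as a log2 difference from the LFD males, was 0.570 in M6.1, 0.602 in M6.3(2), 1.44 in M8.1(2) and 1.01 in M8.2. All 4 lay above the LFD males (-0.0891 to 0.149), and M8.1(2) and M8.2 lay above the other HFD males. For the amino acid enzymes the values were -0.106, -0.106, -0.299 and -0.427 in that order, where M6.1 and M6.3(2) lay beside the lowest LFD males (-0.103 and -0.0982). For the male-biased genes they were -0.570, -0.315, -1.27 and -1.35, where M6.3(2) overlapped the LFD males (-0.378 to 0.251). The 4 HFD females lay closer together, at 0.260 to 0.393 for amino acid enzymes and 0.239 to 0.714 for male-biased genes, above every LFD female in both lists.

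Collagens and extracellular matrix genes had a higher diet effect in males. Of 42 tested, 10 were called, all higher in males (23.8%), the median interaction was 1.34, and the medians were 1.22 in males and -0.0541 in females. In males 33 of the 42 rose (7.62 percent of all genes) and none fell, in females 1 rose (6.3 percent) and none fell, and in 25 every HFD male was above every LFD male (9.7 percent). Tnc (chr4:63959785-64047015), the matrix glycoprotein tenascin C of injured tissue, read 1.57, 0.866, 1.45 and 2.1 CPM in LFD males and 2.23, 10.7, 6.92 and 17.7 CPM in HFD males. It read 1.88 to 2.91 CPM in LFD and 1.46 to 3.43 CPM in HFD females, which overlapped, whereas the male groups did not. Its interaction was 2.71 (SE 0.67, edgeR adjusted p = 0.0302). Thbs1 (chr2:118111876-118127133), thrombospondin 1, which activates latent TGF-beta, read 1.51, 1.44, 2.97 and 3.38 CPM in LFD and 3.6, 8.88, 6.47 and 13.5 CPM in HFD males without overlap, against 3.09 to 6.34 and 2.13 to 3.61 CPM in LFD and HFD females with overlap, and its interaction was 2.35 (SE 0.61, edgeR adjusted p = 0.0352).

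The other called matrix genes were the basement membrane collagens Col4a1 (1.65) and Col4a2 (1.55), Col14a1 (1.48), Col16a1 (1.35), the crosslinking enzyme Loxl2 (2.03), Postn (1.61), Sparc (1.39) and the laminin chain Lamc1 (1.01). All 10 rose in males and none passed in females. The fibrillar collagens that make up most scar tissue were just outside the threshold. Col3a1 read 28.7, 19.8, 28.8 and 45 CPM in LFD and 71.2, 164, 170 and 267 CPM in HFD males, against 36.7 to 49.6 and 37.9 to 58.2 CPM in LFD and HFD females, and Col1a1 read 7.41 to 16 and 28.5 to 142 CPM in LFD and HFD males. HFD males lay above all LFD males for both genes, and M6.1 was the lowest HFD male for each. Their interactions were 2.37 (SE 0.69, edgeR adjusted p = 0.05), which lies just above the threshold before rounding, and 2.59 (SE 0.87, edgeR adjusted p = 0.0747).

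Of 24 matrix proteases and inhibitors 3 were called (12.5% against 3.93% of all genes), all higher in males, and the median was 1.23. They included Plau, the urokinase activator of plasmin, at 1.71 (SE 0.46, edgeR adjusted p = 0.0404), and the protease Adamts1 at 1.1 (SE 0.31, edgeR adjusted p = 0.0457). Mmp2 and Mmp12, proteases that the study names, had interactions of 1.08 (SE 0.68, edgeR adjusted p = 0.345) and 1.48 (SE 1.26, edgeR adjusted p = 0.516). Of the 13 matrix and protease calls, 0 held with M8.1(2) left out, with M8.2 left out, or with both left out, where 12 had an unadjusted p under 0.05 and the matrix list had a median of 0.865. The count also fell by over 1.5 times without each of the other 8 libraries named with the whole count and without M9.1, and it was 0 without M7.2, F8.1, F8.2, F7.2 or F7.4.

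Markers of stellate cells and fibroblasts, the liver's main collagen producers, numbered 27, of which 5 were called, all higher in males (18.5%), with a median of 0.786. The defining marker Colec11 rose in males by 0.77 on the log2 scale (edgeR adjusted p = 0.00274) and had an interaction of 0.79 (SE 0.21, edgeR adjusted p = 0.0388). Tagln, an actin-binding protein of contractile cells (1.35), also rose in males, whereas Ednrb, an endothelin receptor (1.01), and the cytokine Tgfb1 (1.14) fell in females. The other defining markers were not called, with interactions of 0.85 for Lrat, 1.07 for Reln, 0.63 for Des and 1.15 for Pdgfrb (edgeR adjusted p = 0.271, 0.073, 0.11 and 0.0854). The 27 markers summed to 363 to 525 CPM in LFD males, 458.5 to 953.5 in HFD males, 603 to 682.5 in LFD females and 483 to 673 in HFD females. Their part in the matrix result was not tested. None of the 5 calls held without M8.1(2), without M8.2, without both (4 had an unadjusted p under 0.05) or without F8.2, and M9.2 and the rest of the 10 libraries named with the whole count also cut them by over 1.5 times.

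**Figure D5:**
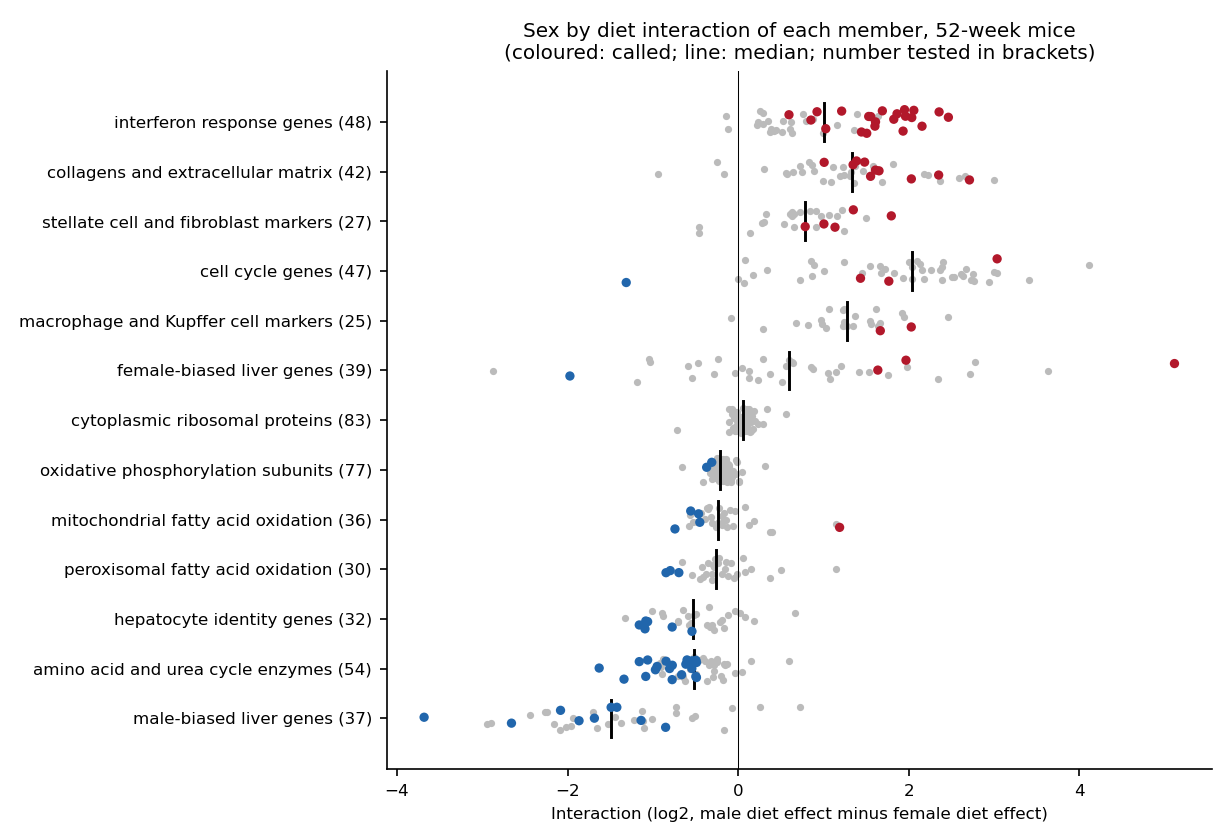
Interaction (log2, male diet effect minus female diet effect) of each member of 13 gene lists, with called members in colour, a line at the median and the number tested in brackets. Medians run from -1.49 for male-biased genes and -0.512 for amino acid enzymes through 0.0553 for ribosomal proteins to 1.34 for matrix genes and 2.04 for cell cycle genes.

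Macrophage genes leaned the same way with few calls. Of 25 markers of macrophages and Kupffer cells 24 had a positive interaction, the median was 1.28, and 2 were called (8.0% against 3.93% of all genes). Fcgr1 (chr3:96282909-96293969), the high-affinity IgG receptor, read 2.08, 1.5, 3.05 and 2.66 CPM in LFD males and 1.18, 4.03, 6.76 and 7.59 CPM in HFD males, where M6.1 was below the LFD range. It read 7.08, 5.91, 5.14 and 8.83 CPM in LFD females and 2.86, 4.56, 3.67 and 2.84 CPM in HFD females, all HFD values being lower. The interaction was 2.03 (SE 0.5, edgeR adjusted p = 0.0295), and the other call was Aif1, an actin-bundling protein of macrophages, at 1.67 (SE 0.46, edgeR adjusted p = 0.0425). The defining marker Adgre1 read 9.01, 7.41, 24.2 and 18.4 CPM in LFD and 6.33, 21, 29.8 and 51.8 CPM in HFD males, and 96, 53.6, 40.6 and 52 CPM in LFD and 10.1, 66.4, 24.6 and 15.5 CPM in HFD females. Both sexes overlapped, with F6.4 standing far above the other HFD females, and the interaction was not called at 1.94 (SE 0.74, edgeR adjusted p = 0.108). Across the list, the median shift was -0.785 in M6.1 against 0.551 to 1.42 in the other HFD males, and 0.164 in F6.4 against -1.30 to -0.735 in the other HFD females. Without F6.4, 17 of the 25 were called, and without M8.1(2) or M8.2 none was. The B and plasma cell markers also summed highest in F6.4, to 1849 CPM against 496.3 to 853.2 in the other HFD females. The study reports foci of lymphoid cells in the livers of a few aged females, whichever the diet. Whether F6.4 came from such a mouse was not tested. Adgre1, Clec4f, Timd4, Cd68, Csf1r and C1qa, the defining markers, had interactions of 0.681 to 1.94 and none was called.

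Genes of lipid-associated macrophages, the cells that gather around fat-laden hepatocytes, held 2 calls among 24 (8.33% against 3.93% of all genes), Anxa2 (chr9:69453620-69491795) and the galectin Lgals3. Anxa2, an annexin that many injured cells also express, read 10.7, 9.07, 12.1 and 14.6 CPM in LFD males and 27.3, 58.1, 80.2 and 108 CPM in HFD males without overlap. It read 13.4 to 19.3 and 10.7 to 23.8 CPM in LFD and HFD females with overlap, and its interaction was 2.53 (SE 0.66, edgeR adjusted p = 0.0353). Lgals3 had 2.1 (SE 0.55, edgeR adjusted p = 0.0353), and Trem2, the receptor that defines these cells, had 1.71 (SE 0.89, edgeR adjusted p = 0.243). Among 25 endothelial markers, all of them positive, Plvap of fenestrated endothelium (0.89) and the hyaluronan receptor Lyve1 (2.14) were called (8%). Of 24 toll-like receptor genes, the lipopolysaccharide coreceptor Cd14 (2.04) was the 1 call (4.17%, near the 3.93% of all genes). The adhesion protein Icam1 (1.09) and Tgfb1 were called among 25 inflammatory genes (8%). Of these 8 immune and endothelial calls (Tgfb1 not counted), 0 held without M8.1(2), without M8.2, and without both, where all 8 had an unadjusted p under 0.05, 0 held without M7.1, M7.2, F8.1, F8.2 or F7.2, and F6.1, F7.4 and F9.2 cut them by over 1.5 times. Markers of T cells and natural killer cells (30 genes), B and plasma cells (23), neutrophils (8), dendritic cells (20) and cholangiocytes (17), and 30 chemokine genes, held no call.

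Cell cycle genes had the largest median interaction of the lists, 2.04 over 47 genes, of which 46 were positive, and 4 were called, 8.51% against 3.93% of all genes. In males 21 rose (7.62 percent of all genes) and 1 fell, in females none rose and 1 fell, and in 35 every HFD male was above every LFD male (9.7 percent). Mki67 (chr7:135689784-135716361), a nuclear protein of dividing cells, read 2.14, 1.64, 2.87 and 4.29 CPM in LFD males and 7.01, 7.65, 20.1 and 15.8 CPM in HFD males. It read 15.3, 12.4, 15.6 and 16.6 CPM in LFD females and 6.34, 16.2, 7.17 and 4.18 CPM in HFD females. The male groups did not overlap, whereas the HFD female F6.4 lay among the LFD females and the other HFD females below them. The interaction was 3.04 (SE 0.83, edgeR adjusted p = 0.0417). Ccnd1 (chr7:144929931-144939925), the cyclin that drives entry into the cycle, was called from the female side, with 344, 199, 222 and 252 CPM in LFD and 127, 107, 106 and 103 CPM in HFD females without overlap, against 23.1 to 51.1 and 34.5 to 71.2 CPM in LFD and HFD males with overlap. Its interaction was 1.77 (SE 0.44, edgeR adjusted p = 0.0327). Mcm3, a replication helicase subunit, was called at 1.43 (SE 0.39, edgeR adjusted p = 0.0407), and the thymidine kinase Tk1 was called in the other direction at -1.31 (SE 0.3, edgeR adjusted p = 0.0255), with a log2 change of -0.96 in males (edgeR adjusted p = 0.0074). A fit of the 16 libraries of these mice alone called 23 members higher and 1 lower, whereas without M8.1(2), M8.2, M7.2, F8.2 or F7.2 the 32-library fit called none of the 4. It called none without both M8.1(2) and M8.2, where all 4 had an unadjusted p under 0.05, and M7.1, M9.1, F6.1, F8.1, F7.4 and F9.2 each cut the 4 by over 1.5 times.

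Hepatocyte identity genes went the other way, with 6 of 32 called lower in males (18.8%), a median of -0.53, and 12 that fell in males against 1 in females (4.42 and 4.91 percent of all genes). Of the 6, Otc, Hpd, Fah, Cps1 and Ass1 are amino acid enzymes described above, and the last was Serpina1c, an alpha-1-antitrypsin gene, at -1.09 (SE 0.31, edgeR adjusted p = 0.044). Of 6 defining hepatocyte markers, Serpina1c and Cps1 were among these calls, and Alb, Apoa1, Ttr and Hnf4a were not called, with interactions of -0.04, -0.28, -0.17 and -0.31 (edgeR adjusted p = 0.933, 0.546, 0.639 and 0.342). The 32 genes summed to 146600 to 172900 CPM in LFD males, 110900 to 149400 in HFD males, 144500 to 165500 in LFD females and 136400 to 167500 in HFD females, and the part of a lower hepatocyte share in the amino acid and male-biased results was not tested. Alb averaged 62900 to 86500 CPM in the 4 groups. Cd3d, Cd3e, Cd3g and Trac of T cells averaged at most 1.23 CPM in any group, and the epithelial Krt7 and Krt19 of bile ducts at most 0.976. The other bile duct markers, Epcam and Sox9, averaged 1.24 to 2.04 and 4.38 to 9.46 CPM in the 4 groups. Of the list of pancreatic acinar and adipose genes, 3 of 18 were in both tables, among them Cela1, whose interaction was -1.07 (SE 0.45, edgeR adjusted p = 0.145), and Prss2, Ctrb1 and Cpa1 were in neither. None of the 6 hepatocyte calls held without M8.1(2), without M8.2 or without both, where all 6 had an unadjusted p under 0.05, and the other 8 libraries named with the whole count cut them by over 1.5 times.

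Genes of fatty acid oxidation rose on HFD in both sexes, more of them in females, and 7 of the 8 calls were lower in males. In mitochondria, 25 of 36 genes rose in females and 11 in males (6.3 and 7.62 percent of all genes), with medians of 0.479 and 0.183. The interaction was called lower in males for 4 and higher for 1 (13.9% of the list against 3.93% of all genes). Acadvl, the dehydrogenase of very long chain acyl-CoA, read 295 to 303 CPM in LFD and 357 to 433 CPM in HFD females without overlap, against 323 to 368 and 312 to 373 CPM in LFD and HFD males with overlap, and its interaction was -0.46 (SE 0.12, edgeR adjusted p = 0.036). Acaa2, the thiolase of the last step, and Etfa, an electron carrier, rose likewise in females and were called at -0.56 and -0.45, whereas Acadsb, of short branched acids, fell in males and was called at -0.74. The thioesterase Acot9 rose in males and was the call in the other direction at 1.19 (SE 0.34, edgeR adjusted p = 0.0447). In peroxisomes, 13 of 30 genes rose in females and 6 in males, and the 3 calls (10% of the list) were lower in males.

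Scp2 (chr4:108043839-108144998), the thiolase and sterol carrier of peroxisomes, read 1126, 1017, 1025 and 1099 CPM in LFD females and 2033, 1397, 2134 and 1922 CPM in HFD females. It read 3751, 3382, 3482 and 2861 CPM in LFD males and 4021, 3864, 3382 and 3336 CPM in HFD males. The female groups did not overlap and the male groups did. The interaction was -0.7 (SE 0.19, edgeR adjusted p = 0.044). Phyh, which starts the breakdown of phytanic acid, read 683 to 743 and 905 to 1203 CPM in LFD and HFD females without overlap and was called at -0.85 (SE 0.18, edgeR adjusted p = 0.0186), and Pecr, an enoyl-CoA reductase, was called at -0.8 (SE 0.19, edgeR adjusted p = 0.0293). Among 28 genes of fatty acid synthesis the median interaction was positive at 0.452 while both calls (7.14% of the list) were negative, since 10 of the 28 fell in females and 3 in males and the calls were elongases. Elovl2 (chr13:41182381-41220405), which elongates polyunsaturated fatty acids, read 1253, 1229, 1188 and 1181 CPM in LFD males and 1059, 761, 745 and 662 CPM in HFD males. In females it read 734, 821, 815 and 852 CPM on LFD and 981, 1100, 976 and 897 CPM on HFD. HFD males were all below LFD males and HFD females all above LFD females, and the interaction was -0.88 (SE 0.15, edgeR adjusted p = 0.00538). Fasn, Scd1, Acaca and Acly, which carry out the synthesis itself, had interactions of 1.27, 1.02, 1.29 and 0.52, none called (edgeR adjusted p = 0.271, 0.251, 0.103 and 0.686). Of these 10 fatty acid calls (Elovl3 included) 1, Elovl2, held without M8.1(2) or without M8.2, 0 held without both, where all 10 had an unadjusted p under 0.05, and M9.1 and the other 8 libraries named with the whole count also cut them by over 1.5 times.

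Calls on other lipid genes were scattered in both directions. Ces3a (chr8:105048601-105058413), a carboxylesterase that hydrolyses triglyceride in hepatocytes, read 2044, 1811, 1814 and 1412 CPM in LFD males and 1469, 1772, 1085 and 1199 CPM in HFD males. It read 103, 198, 88.8 and 161 CPM in LFD females and 489, 357, 370 and 560 CPM in HFD females. The male groups overlapped, and every HFD female was above every LFD female. Its interaction was -2.05 (SE 0.36, edgeR adjusted p = 0.00538), called with any 1 library left out, and its near copy Ces3b (95.2% identity) had -1.1 (SE 0.61, edgeR adjusted p = 0.274). Sptlc2 (chr12:87305058-87388355), a subunit of the enzyme that starts sphingolipid synthesis, read 24.7, 23.5, 25.8 and 28.2 CPM in LFD and 27.4, 29.2, 34.9 and 40.2 CPM in HFD males with overlap. In females it read 40.9, 34.3, 39.8 and 34.2 CPM on LFD and 25.9, 30.1, 26.8 and 22.6 CPM on HFD, all HFD values below. It rose in males (edgeR adjusted p = 0.0262), fell in females (edgeR adjusted p = 0.00344) and had an interaction of 0.87 (SE 0.15, edgeR adjusted p = 0.00538), also called with any 1 library left out.

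Of 39 sphingolipid genes the other calls were Acer3, a ceramidase (0.58), Hexa, which breaks down gangliosides (0.88), and Sgms2, a sphingomyelin synthase (-0.81). The lipoprotein list added the HDL receptor Scarb1 (-0.66) and the cholesterol exporter Abcg1 (1.52), the bile acid list Abcc4 and the canalicular pump Abcb11, which fell in males (-0.8 (SE 0.2, edgeR adjusted p = 0.0343)), and the synthesis and droplet lists Gpat4 (-0.7) and Ldah (-0.33). Called were 10.3% of the sphingolipid, 8.57% of the lipoprotein and 6.9% of the bile acid genes, against 3.93% of all genes. The synthesis (3.12%) and droplet (4.55%) lists lay near that share. Of the steatosis genes that PPAR-gamma drives, 12 of 16 rose in males and 2 in females (7.62 and 6.3 percent of all genes), and Anxa2 and S100a11 (2.09) were called (12.5%). Cidec, which fuses lipid droplets and is one of these genes, gave 2.45 (SE 0.72, edgeR adjusted p = 0.0284) for males, 2.14 (SE 0.87, edgeR adjusted p = 0.108) for females and 0.31 (SE 1.14, edgeR adjusted p = 0.909) for the interaction. Of the 11 calls on sphingolipid, lipoprotein, bile acid, synthesis and droplet genes, 2 held without M8.1(2), M8.2, F8.1, F8.2 or F7.2, 0 held without M8.1(2) and M8.2, where 10 had an unadjusted p under 0.05, and the rest of the 10 libraries named with the whole count also cut them by over 1.5 times.

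In glucose, redox and energy genes the calls were few. Hk2, a hexokinase low in normal hepatocytes, read 2.1, 1.46, 1.77 and 3.38 CPM in LFD males and 2.37, 7.25, 15.1 and 17.4 CPM in HFD males, with M6.1 inside the LFD range, and was called at 2.86 (SE 0.76, edgeR adjusted p = 0.0373). The pyruvate kinase Pkm of non-hepatocyte cells was called at 1.36 (SE 0.36, edgeR adjusted p = 0.0376). Hk2 and Pkm were the 2 calls among 33 genes of glycolysis and gluconeogenesis (6.06%). The glutathione transferases Gstk1 (-0.7) and Mgst1 (-0.58) rose in females without passing in males, and the haem oxygenase Hmox1 (1.48) was called higher in males. These were the 3 calls among 43 glutathione and antioxidant genes (6.98%). Ptpn1, a phosphatase of the insulin receptor (0.52), was the 1 call among 29 insulin signaling genes (3.45%). Slc16a6, a ketone body transporter (1.31), was the 1 call among 11 ketone body genes (9.09%). The complex I subunit Ndufv1 (-0.37) was 1 of 2 calls among 77 oxidative phosphorylation subunits (2.6%). Of all genes 3.93% were called. Nox4 (chr7:87246096-87398710), which produces hydrogen peroxide, read 76.9, 79.1, 83.3 and 75.8 CPM in LFD males and 74.9, 71.8, 42.4 and 46.4 CPM in HFD males. It read 9.87, 7.72, 7.06 and 9.73 CPM in LFD females and 25.6, 13.2, 20.5 and 25.2 CPM in HFD females. HFD males were all below and HFD females all above their LFD group, M6.1 and M6.3(2) only slightly so, and the interaction of -1.72 (SE 0.34, edgeR adjusted p = 0.0123) was called with any 1 library left out. Dpy19l3 (chr7:35685165-35754454) read 51, 52.5, 59.1 and 41.1 CPM in LFD and 27.1, 33.4, 24.9 and 22.9 CPM in HFD males, and 3.11, 2.33, 2.91 and 2.87 CPM in LFD and 4.17, 4.13, 5 and 3.82 CPM in HFD females. Neither sex overlapped, the interaction was -1.52 (SE 0.2, edgeR adjusted p = 0.00059), the smallest adjusted p of all genes, and without M8.1(2) and M8.2 it was -1.39 (SE 0.22, edgeR adjusted p = 0.0173).

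Some gene groups that the diet moved, and others that it hardly moved, showed no difference between the sexes that the test could call. Cytoplasmic ribosomal proteins fell in 59 of 83 genes in males and in 69 in females (4.42 and 4.91 percent of all genes), and none of the 83 was called in the interaction, with a range of -0.713 to 0.558 and a median of 0.0553 (0.0159 with RLE scaling). Targets of PPAR-alpha rose in 7 of 26 genes in males and 10 in females (7.62 and 6.3 percent of all genes) with no call. Cholesterol synthesis (27 genes), the unfolded protein response (33), the circadian clock (20) and senescence genes (20) held no call either, so that 14 of 43 lists had none. No circadian gene passed the diet test in either sex, and of the cholesterol genes 2 fell in males and 1 rose in females. On the circadian list the LFD males were split, at median log2 differences of 0.36 (M7.1), 0.53 (M7.2), -0.342 (M9.1) and -0.318 (M9.2) from their mean. The HFD males lay between them, at -0.0359 to 0.189. The part of this split in the male diet effects was not tested. Of 47 genes that the study names for its diet comparisons, 2 were called, Acaa2 and Hexa (4.26% against 3.93% of all genes). Xdh, which makes uric acid, had an interaction of 0.02 (SE 0.14, edgeR adjusted p = 0.96), Edn1, endothelin 1, 1.23 (SE 0.71, edgeR adjusted p = 0.298), and Cdk1, the mitotic kinase, 2.14 (SE 0.84, edgeR adjusted p = 0.121). With SEs of this size an interaction can go uncalled at a log2 value above 1, and a p that misses the threshold does not show that the sexes responded alike.

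The 52-week interaction was set beside the one of 7-week mice, which rests on other libraries. In the young mice 56 genes were called, 8 of which were called in aged mice as well, all with the same sign. Of the 604 aged calls, 544 (90.1%) had the same sign in young mice, against 69.7% of all genes tested, and the median young interaction was 0.53 for the higher and -0.289 for the lower calls. A direct test of the aged interaction minus the young one called 0 genes by edgeR, with 832 at an unadjusted p under 0.05, of which 173 were among the 604. The likelihood ratio test called 5, DESeq2 9 and voom with quality weights 1.

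The young values of the main gene groups were set beside the aged ones. For the interferon list the young median was -0.0914 against 1.01 in aged mice, no young member was called, and 29 of the 48 had an unadjusted p under 0.05 in the direct test by age, all 29 with the aged value the higher, against 832 of 15383 genes and 0 past adjustment. Ifi27l2a had a young interaction of 0.26 and Ifit1 of -0.22. For amino acid enzymes the young median was -0.109 against -0.512, no young member was called, and 14 of the 54 had an unadjusted p under 0.05 in the direct test, none positive. For male-biased genes it was -0.609 against -1.49. Matrix genes had a young median of 1.42 against 1.34 in aged mice, with 0 of 42 at an unadjusted p under 0.05 in the direct test. Cell cycle genes had 2.92 against 2.04, with 10 members called in young and 4 in aged mice, and the steatosis genes of PPAR-gamma had 2.14 against 0.917, with 6 and 2. Since the direct test called no gene, none of these groups is shown to differ between the ages.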

How the data were processed

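Liver mRNA of 32 samples (16 of them from 52-week mice) was measured by polyA-selected paired-end RNA-seq. According to the study's methods, reads were aligned to mm10 with STAR, reads mapping to several places were left out, and reads per gene were counted with featureCounts. Their versions, the annotation release and the strand setting were not given in the sources used here, so overlapping genes may share reads. The values used are the raw counts deposited by the authors, in 1 table per sex, after their filter on genes with over 10 counts in at least 2 libraries. The authors' log2 CPM, RPKM, fold change and p-value columns were not used.

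The tables were joined on gene ID (16079 male and 15736 female genes, 15386 in both), and 15383 genes with over 10 counts in at least 2 libraries of each sex were tested. Libraries were grouped by the labels, TMM factors were set over 32 libraries, and 8 groups were fitted in 1 edgeR 4.0.16 quasi-likelihood model in R 4.3.3 with no covariate. Contrasts were the diet effect of each sex, their difference, and that difference in 52-week minus 7-week mice. Benjamini-Hochberg adjustment ran over all genes tested, and the SE is the log2 value divided by the root of F. CPM are TMM-scaled. Genes absent from 1 table can be expressed in 1 sex only and are not analysed here (693 male, 350 female). The scripts were tested on simulated data. No library pair matched within sampling noise (chi-square per gene 25.5 to 116).

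Genes named are those the study names for its diet comparisons, the 12 largest and 12 most negative interactions among genes called in both the 32-library and the 16-library fit with a mean of at least 1 CPM (immunoglobulin and T cell receptor segments and non-standard symbols left out), and up to 4 members of each list with the smallest p. Other called list members, cell type markers, Dpy19l3, Bckdhb, Bckdk, Isg15, Acly, near copies and genes of the summed fit were named after their values were seen. The members and lists were chosen with earlier results of these data known. Near copies were aligned from GENCODE vM21 transcripts, and promoters came from RefSeq (GRCm38.p6). Alternatives were DESeq2 1.42.0, the voom method of limma 3.58.1 with quality weights, edgeR's likelihood ratio test, a robust prior, RLE scaling, TMM per sex, other filters, the 16 libraries alone, each sex apart, libraries summed by title number, a block by title number, and libraries or pairs left out. Depth gives counting error only, and the error used is the spread between the samples of a group. Some genes are not reported here by name, though counts over lists include them.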

Additional observations from a re-analysis of the deposited data

Results flagged for a closer look

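Over 168 groups of 4 libraries (each described gene or list in each group), 7 had a library far from the other 3 by Dixon's ratio of the gap to the group's range. Chance flags about 1 in 20 groups. Among interferon genes these were Ifit1 in the HFD male M8.1(2) (42.1 CPM) and in the LFD female F7.2 (15.9 CPM), and Usp18 in the HFD female F8.2 (13.4 CPM). The LFD female F9.2 stood apart for Hsd3b2 (13.1 CPM), the LFD male M7.2 for Ass1 (3950 CPM), and the HFD female F6.1 for Ccnd1 (127 CPM). Over the cell cycle list, the LFD female F9.1 had a median of -0.816 against the LFD females' mean on the log2 scale, below the other LFD females. The diet effect differed between the sexes by a test of the difference itself for 604 genes.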

How the results depend on the processing

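The 604 interaction calls became 1107 with the likelihood ratio test, 1531 with DESeq2, 2638 with voom and 1739 with each sex fitted apart, and 8 with libraries summed by title number (2917 at an unadjusted p under 0.05), which leaves 2 samples a group. They became 2 without M8.1(2) and M8.2, 28 to 1750 with 1 library left out, and, for pairs chosen after seeing the data, 10 without the F7, 15 without the F8, 30 without the M7, 263 without the F9, 1179 without the M9 and 2163 without the M6 pair. These fits hold fewer samples, and the cause of the changed counts was not tested. RLE scaling gave 658, TMM per sex 615, the robust prior 591, a minimum of 1 CPM in 4 libraries 754 and the 16 libraries alone 754, all within 1.5 times of 604. The 604 genes kept their sign under every alternative in which they were tested. The 8 genes of the summed fit were Lgals1, higher in males, and Ppm1k, Dpy19l3, C8b, Ces3a, Hsd3b3, Hykk and Ociad2, lower. The difference between the ages, 0 by edgeR, was 5 by the likelihood ratio test, 9 by DESeq2, 1 by voom and 1 with summed libraries. Of 43 lists, calls moved by over 1.5 times (or from or to 0) in 30 with DESeq2, all upward, and in 21 with the 16 libraries alone (17 up, 4 down). Examples with the 16 libraries alone are matrix genes (22 of 42) and cell cycle genes (24 of 47), and with DESeq2 matrix genes (20), cell cycle genes (15), male-biased genes (15 of 37), hepatocyte genes (12 of 32) and macrophage markers (10 of 25). Of 127 named genes called, 125 lost the call without M8.1(2) and M8.2, and no named gene changed sign. The labels do not say what the title numbers mark. Numbers 6 and 8 (HFD) and 7 and 9 (LFD) occur in both sexes. With the number as a replicate block, added after seeing the data, 554 genes were called (500 of the 604 among them). Over genes, the gap between the numbers correlated between the sexes at -0.281 for 6 and 8 and at 0.111 for 7 and 9, so the numbers were not taken to pair the samples. Whether sequencing depth limits these counts was not tested.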
